A study of Mus musculus with 2 samples.

Results

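Conventional CD4+ T cells were selected in single-cell RNA sequencing of mouse ear skin by the transcripts each cell carried, counted as unique molecular identifiers (UMIs, 1 for each captured RNA molecule). A cell was chosen by at least 2 UMIs of Cd3d, Cd3e and Cd3g together, at least 1 Cd4 UMI, 0 UMIs of Cd8a, Cd8b1, Foxp3 and Cd163l1, and at most 3 UMIs of the myeloid gene Lyz2. The rule found 705 of the 23878 cells that passed the quality filter, of which 44 of 12213 lay in the control library and 661 of 11665 in the library of allergic contact dermatitis (ACD); they are called members below. Both libraries came from ear skin of ICR mice aged 7 to 8 weeks, an outbred strain. The control was healthy ear skin. The ACD mice had been sensitized with 1.0% DNFB, a hapten that binds skin proteins, on the dorsal skin, ACD was elicited with 0.2% DNFB on the ears 6 days later, and the ear skin was taken 60 hours after that. There was 1 library for each condition and no replicate, so no p-value is given, and every interval is a 95% interval that covers counting error only. How many animals each library held is not given in the sources used here.

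Conventional CD4+ T cells recognise peptides on class II molecules and act mainly through the cytokines they release and the ligands they show to other cells. In contact hypersensitivity, cells primed in lymph nodes during sensitization enter the skin again on elicitation. They are classed by the cytokines they make, with IFNγ for type 1, IL-4 and IL-13 for type 2 and IL-17 for type 17 cells, while FOXP3+ regulatory T cells restrain them. Signals through the T cell receptor reach these cytokine genes in part through NFAT proteins, which bind DNA at the letters GGAAA.

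The cytokine classes of the cells described below turn on Ifng and on Il17a, so the stretch of 250 bases before the start of each gene is shown, taken from RefSeq (GRCm38.p6, + strand, chr10:118440796-118441045 for Ifng and chr1:20730655-20730904 for Il17a), with each copy of GGAAA or of its reverse complement TTTCC in capitals.
Ifng: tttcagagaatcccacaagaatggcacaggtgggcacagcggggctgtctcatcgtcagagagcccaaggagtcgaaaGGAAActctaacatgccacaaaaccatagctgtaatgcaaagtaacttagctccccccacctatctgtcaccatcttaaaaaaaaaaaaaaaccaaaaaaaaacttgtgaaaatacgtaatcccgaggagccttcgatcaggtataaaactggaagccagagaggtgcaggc
Il17a: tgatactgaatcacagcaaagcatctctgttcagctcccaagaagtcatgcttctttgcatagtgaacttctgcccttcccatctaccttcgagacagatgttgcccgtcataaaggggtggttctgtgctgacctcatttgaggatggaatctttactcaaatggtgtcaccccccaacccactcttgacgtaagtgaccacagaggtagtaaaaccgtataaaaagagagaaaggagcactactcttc
The Ifng stretch held 1 copy, which began 172.0 bases before the gene, and the Il17a stretch held 0. Of 27025 mouse promoters of this length, 15020 (55.6%) held at least 1 copy on either strand and 1757 (6.50%) held 3 or more. A match is a description of the letters, and its absence from this window says nothing of the factor. On GRCm38, Ifng itself lies at chr10:118441046-118445892 and Il17a at chr1:20730905-20734496, with the spans covering exons and introns.

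The rule itself used Cd4 and the CD3 genes, so of the markers of the label only Cd28 and Cd40lg are independent of it. The costimulatory receptor Cd28 was present in 39 of the 44 control cells and 568 of the 661 ACD cells, and Cd40lg, the ligand by which helper cells activate CD40-bearing cells, in 9 and 178. The median member held 10.5 CD3 UMIs in control and 13 in ACD, of which the rule asked for at least 2. At the edges of the rule, 1 control and 15 ACD members stood at exactly 2 CD3 UMIs and 25 and 301 stood at exactly 1 Cd4 UMI. Just outside it, 2 and 11 cells had 1 CD3 UMI, 539 and 862 had no Cd4 UMI, 0 and 31 also held a Cd8 UMI, and 8 and 188 held a Foxp3 UMI. A cell in which Cd4 RNA was missed is therefore not a member. Members held 308198 UMIs in control (median 5178.5 per cell, range 1865 to 23198) and 5093588 in ACD (median 6288, range 1591 to 24707). The 2 libraries shared 50 barcodes, carried by 0 control and 3 ACD members.

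The members were searched for markers of other cells. Counted per 1000000 UMIs of all members (CPM), the summed level was 3.24 and 2.16 in control and ACD for 4 B cell markers, 0 and 4.12 for 4 neutrophil markers, 6.49 and 8.83 for 9 markers of mononuclear phagocytes and 0 and 0.196 for 2 gamma delta T cell markers. The rule itself set Cd163l1, 1 of the last 2, to 0 and limited Lyz2, 1 of the 9, so these low levels come in part from the rule. Ms4a1, which marks B cells, and C1qa, which marks macrophages, had 0 UMIs in the members of both libraries. Other genes of these lists were found, namely 1 and 2 of the 4 B cell markers and 2 and 6 of the 9 phagocyte markers in control and ACD members. Natural killer and ILC1 markers stood at 0 and 34.6 and endothelial markers at 38.9 and 29.4. Dendritic cell markers, of which Ccr7 is also on the chemokine receptor list, stood at 97.3 and 232. Other lists were higher. The 4 markers of dendritic epidermal T cells that were in the annotation, of which Nkg7 is also on the cytotoxic list, stood at 279 and 681, and 108 ACD members held at least 10 of their UMIs. The 5 regulatory T cell markers stood at 253 and 474, with Foxp3 set to 0 by the rule, and the 6 ILC2 markers, which include Gata3 and Il13, at 221 and 236. Fibroblast RNA was higher still. The 6 fibroblast markers, all found, summed to 8199.3 CPM in control (95% interval 7882.7 to 8525.3) and 2668.8 in ACD (2624.2 to 2714.1), 6 chondrocyte markers to 818 and 663, and 3 markers of pericytes and smooth muscle to 253 and 43.0.

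The fibroblast and chondrocyte RNA sat in few cells. Over the 12 markers together the median member held 3 UMIs in control and 2 in ACD, while 11 of 44 control members (25%) and 61 of 661 ACD members (9.23%) held at least 10. These stroma-carrying cells were deep, with a median of 10821 UMIs against 3745 for the other control members and 14132 against 5875.5 for the other ACD members. They contributed 42.2% of the members' UMIs in control and 17.4% in ACD. Leaving them out left 33 control and 600 ACD members, a split chosen after the data were seen. Ratios between the libraries are given over all members, and where a second value is given it leaves these cells out. Their part in the results was not tested. Scrublet, a caller of doublets (2 cells under 1 barcode), marked 8 control and 40 ACD members. Hemoglobin RNA, at 84.4 and 2807 CPM for 4 erythrocyte markers, stood apart in the same way, since 2 ACD members held 13793 of the 14300 UMIs (96.5%).

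**Figure D1:**
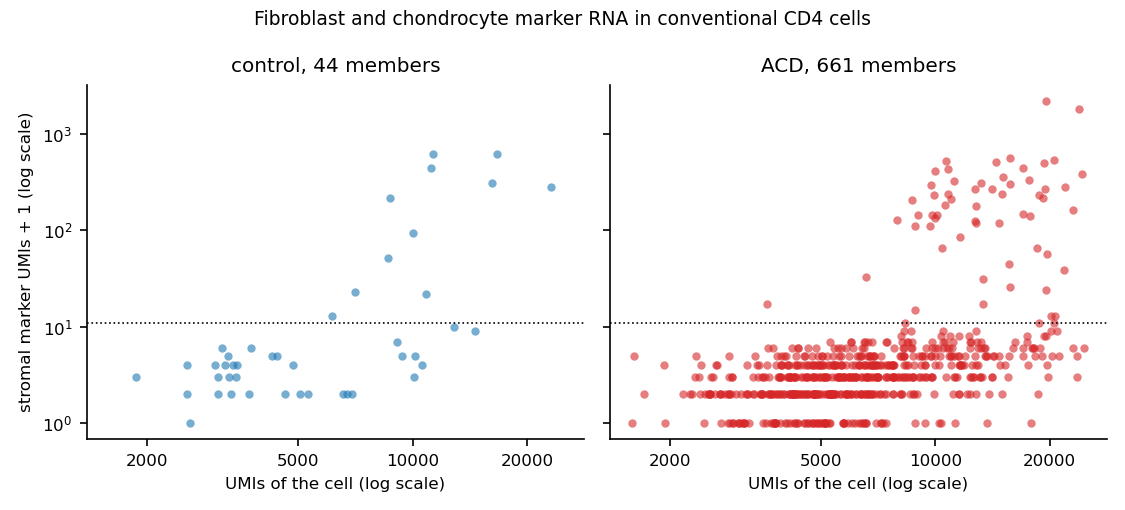
Each point is 1 member of the control library (left) or the ACD library (right), with its total UMIs on the log x axis and its UMIs over 12 fibroblast and chondrocyte markers, plus 1, on the log y axis. The dotted line marks 10 UMIs: 11 of 44 control and 61 of 661 ACD members lie on or above it, mostly the deeper cells.

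Conventional CD4+ T cells made up 0.360% of control cells (95% interval 0.262 to 0.483%) and 5.67% of ACD cells (5.25 to 6.10%). The share was 15.7-fold higher in ACD, a log2 ratio of 3.98 (3.53 to 4.45), and the intervals lay far apart. Of all cells with at least 2 CD3 UMIs, 5.47% were members in control (44 of 805) and 21.2% in ACD (661 of 3116), a log2 ratio of 1.96 (1.52 to 2.43). The CD8+ T cells went from 17 to 725, a log2 ratio of 5.48 over all cells, and its interval of 4.79 to 6.27 lay above that of the members. Regulatory T cells, the same rule with at least 1 Foxp3 UMI, went from 8 to 188, a log2 ratio of 4.62 (3.61 to 5.85), whose interval overlapped that of the members. A share rises where other cells were lost as well as where T cells were gained, and the number of cells per ear was not measured.

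Expression was compared between the libraries as the CPM of a gene over all members of a library, here called its level. In what follows a gene rose or fell where the log2 ratio of the levels, ACD over control with 10 CPM added to each, was at least 1 in size, and all log2 ratios without a further word are on this scale, which understates the ratio of low genes. Of 2758 genes with at least 50 UMIs in both libraries together and a mean level of at least 50 CPM, 32 rose (1.16%) and 131 fell (4.75%), and the median gene had a log2 ratio of -0.071. A gene low in 1 library could pass this filter through its level in the other. Without the stroma-carrying cells 36 of 2723 genes rose (1.32%) and 92 fell (3.38%), with 21 of the risen and 28 of the fallen genes called in both. Of the 131 that fell, 97 were at least 5-fold higher in the fibroblast and chondrocyte cells of control than in the members, against 9 of the 92. The share among all genes tested is not given here, and the cells left out were chosen by their stromal UMIs. What lay behind these falls was not tested. The split of calls also moved with the scaling. With totals that left out ribosomal, mitochondrial and hemoglobin genes 74 of 3722 genes rose and 162 fell. With every cell thinned to 2000 UMIs 94 of 2715 rose and 135 fell. Rises were thus 31.4% and 41.0% of the calls against 19.6% above.

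The 10 highest ratios were led by hemoglobin genes and Coch, with most UMIs in 2 cells, and followed by Ccl4, Csf2, Ifitm1, AW112010, Ctla2a and Klrd1. Coch, an extracellular matrix gene, held 53.7% of its 1062 ACD UMIs in 2 cells and had a log2 ratio of 0.69 without the stroma-carrying cells. Without the hemoglobin-rich cells the ratio was 0.79 for Hbb-bt and 0.28 for Hba-a1. The 10 lowest were Sfrp2, Dlk1, Thbs4, Cilp, Igfbp3, Dpt, Gas1, Cdkn1c, Ebf1 and Angptl7, matrix and mesenchymal genes. Without the stroma-carrying cells Sfrp2 went from -3.98 to -0.58, Thbs4 from -3.35 to -0.51, Cilp from -3.12 to -0.45, and Gas1 from -2.65 to 0.67. The lowest ratios without those cells were led by the pericyte and vessel genes Sparcl1, Rgs5, Acta2 and Igfbp7, at -3.06, -2.63, -2.55 and -2.23. Genes of T cells are described below by role, with lists chosen for this tissue.

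Ifng, the type 1 cytokine and a strong activator of macrophages and keratinocytes, was at 101 CPM in control members (31 UMIs in 11 cells, 95% interval 68.3 to 143) and 269.9 in ACD members (1375 UMIs in 291 cells, 95% interval 256 to 285). Its level was higher in ACD, with a raw log2 ratio of 1.42 (0.91 to 1.99) and a ratio of 1.34 on the scale of the calls and 1.99 without the stroma-carrying cells, so it rose, and the ratio ran from 1.24 to 2.70 over 13 settings of the processing. From here on a second ratio in brackets is the one without the stroma-carrying cells. Of the control UMIs, 12 of 31 lay outside the stroma-carrying cells. The share of cells showed the same order: with each cell thinned to 2000 UMIs Ifng RNA was present in 28.2% (185 of 656 cells, 95% interval 24.8 to 31.8%) of ACD and 2.33% (1 of 43 cells, 95% interval 0.0589 to 12.3%) of control members, and without thinning in 44% and 25%. Free RNA in droplets gives UMIs in cells that do not express a gene, and the fibroblast cells of ACD, at a median of 10660 UMIs, showed Ifng in 0.466% after the same thinning.

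Among the type 1 genes 11 of 22 genes passed the filter, 3 rose and 0 fell, with a median of 0.72 (0.97). Beside Ifng these were Ccl4, a chemokine of activated lymphocytes, and Nkg7, a cytotoxic granule protein. Ccl4 was at 6.49 CPM in control members (2 UMIs in 2 cells, 95% interval 0.786 to 23.4) and 149.6 in ACD members (762 UMIs in 78 cells, 95% interval 139 to 161), with a log2 ratio of 3.27 (3.51) and a raw ratio interval of 2.67 to 7.58. Most of its ACD UMIs, 60.8%, came from 2 cells, and its neighbour and relative Ccl3 had 0 UMIs in control and 425 in 50 ACD cells, of which 66.1% came from 2 cells. Cxcr3, the receptor for interferon-induced chemokines, was found with 1 UMI in control and 233 UMIs in 163 ACD cells, below the filter on levels. The STAT4 and RUNX3 genes of type 1 differentiation had ratios of 0.72 and 0.74, and Tbx21, the gene of the master factor T-bet, 0.52; these 3 did not pass 2-fold.

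Of the cytokine genes 10 of 38 genes passed the filter, 4 rose and 0 fell, with a median of 0.42 (0.25). Csf2, which encodes GM-CSF, the growth and activation factor of myeloid cells (GRCm38 chr11:54247271-54249667), was at 19.5 CPM in control members (6 UMIs in 5 cells, 95% interval 7.14 to 42.4) and 144 in ACD members (735 UMIs in 122 cells, 95% interval 134 to 155). Its log2 ratio was 2.39 (1.98) and the intervals did not overlap. Tnfsf8, the CD30 ligand, was at 48.7 CPM in control members (15 UMIs in 6 cells) and 149.6 in ACD members (762 UMIs in 189 cells), a ratio of 1.44 (1.11). Il13, the type 2 cytokine, had 7 UMIs in 1 control cell and 131 UMIs in 46 ACD cells. The type 17 cytokines rested on few control cells. Il17a was at 35.7 CPM in control members (11 UMIs in 3 cells, 95% interval 17.8 to 63.9) and 14.3 in ACD members (73 UMIs in 17 cells, 95% interval 11.2 to 18.0), a raw log2 ratio of -1.32 (-2.24 to -0.25) at a level below the filter. With 10 CPM added its ratio was -0.91 and ran from -1.42 to 0.43 over 13 settings of the processing. Il17f had 11 UMIs in 2 control cells and 69 in 13 ACD cells. Il22 had 10 UMIs in 3 control cells and 331 in 22 ACD cells, 58.0% of them in 2 cells, and its ratio of 0.82, under 2-fold, ran from 0.35 to 1.03 over 13 settings of the processing. With 2 or 3 positive control cells behind these counts, the Poisson intervals are too narrow for the spread between cells.

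Several cytotoxic genes rose in the ACD members. For this list 8 of 24 genes passed the filter, 5 rose and 0 fell, with a median of 1.13 (1.08) beside -0.071 over all genes tested. Klrd1 and Gzma, at 32.4 and 22.7 CPM in control, passed the filter only through their ACD levels. The list median is therefore a description. Nkg7 was at 224 CPM in control members (69 UMIs in 18 cells, 95% interval 174 to 283) and 567 in ACD members (2886 UMIs in 438 cells, 95% interval 546 to 588), a log2 ratio of 1.30 (1.53). Klrd1, the CD94 chain of natural killer receptors, was at 32.4 CPM in control members (10 UMIs in 5 cells, 95% interval 15.6 to 59.7) and 137 in ACD members (699 UMIs in 218 cells, 95% interval 127 to 148), a ratio of 1.79 (1.91). Ctsw, a protease of cytotoxic lymphocytes, went from 107 to 258 CPM, a ratio of 1.19 (1.72), and Gzma, a granzyme, from 22.7 to 82.8, a ratio of 1.51 (3.36). Gzma rested on few cells, 2 in control and 57 in ACD, and 31.0% of its 422 ACD UMIs lay in 2 cells. Gzmb, the caspase-activating granzyme, met the 2-fold rule at 1.07 but depended on few cells: 17 of its 20 control UMIs lay in 1 cell, and its ratio ran from -1.28 to 3.13 over 13 settings of the processing.

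Some interferon-induced genes rose as well. Of this list 18 of 73 genes passed the filter, 4 rose and 0 fell, and the median was 0.47 (0.70, with 7 of 16 genes rising). Ifitm1, a membrane protein that hinders virus entry (GRCm38 chr7:140967221-140969825), was at 169 CPM in control members (52 UMIs in 9 cells, 95% interval 126 to 221) and 894 in ACD members (4553 UMIs in 298 cells, 95% interval 868 to 920.2). Its level was higher in ACD by a log2 ratio of 2.34 (2.07), but the RNA was uneven, since 298 of 661 ACD members held all of it. AW112010, an interferon-induced transcript, was at 152 CPM in control members (47 UMIs in 19 cells, 95% interval 112 to 203) and 711 in ACD members (3622 UMIs in 533 cells, 95% interval 688 to 735), a ratio of 2.15 (2.13). The GTPase genes Igtp and Gbp7 rose by 1.10 and 1.02 (0.87 and 1.60). Ly6a, a surface protein induced by interferon, had a ratio of 0.77 and Irf1, an interferon-induced transcription factor, of 0.011, both under 2-fold over all members. The Ly6a ratio ran from 0.73 to 1.74 over 13 settings of the processing. Ifitm3 depended on the stroma-carrying cells, with a ratio of 0.33 over all members and 2.18 without them, where it went from 180 to 851 CPM. Genes of class I antigen presentation, also interferon targets, had 0 rises and 0 falls among 17 past the filter, yet 17 of 17 had a ratio above 0 and the median was 0.48 (0.36). B2m, the light chain of class I, was at 1528 CPM in control members (471 UMIs in 44 cells, 95% interval 1393 to 1673) and 2665 in ACD members (13572 UMIs in 660 cells, 95% interval 2619.9 to 2709.7), with a ratio of 0.80, and the peptide loading genes Tapbp and Tap1 had ratios of 0.91 and 0.80.

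**Figure D2:**
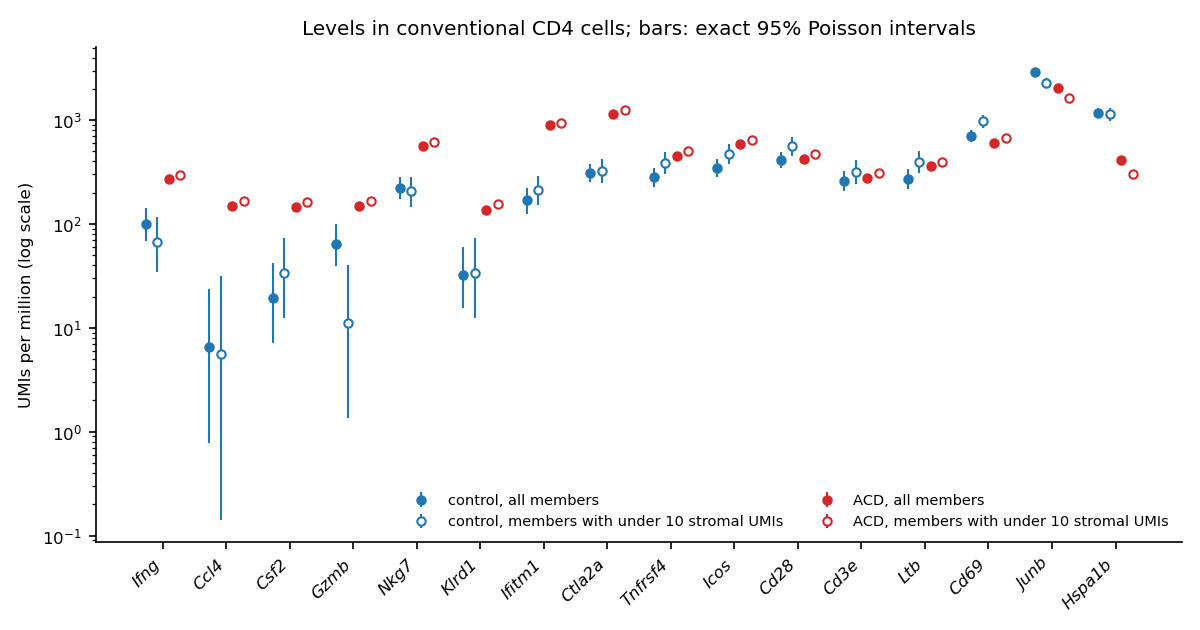
Levels of 16 genes in CPM (UMIs per 1000000) on a log axis, with 95% Poisson intervals (counting error only), for control (blue) and ACD (red); filled points are all members and open points those with under 10 fibroblast and chondrocyte UMIs. Ifng, Ccl4, Csf2, Nkg7, Klrd1, Ifitm1 and Ctla2a lie higher in ACD with both sets of cells, Hspa1b lies lower, and Cd28, Cd3e and Ltb lie close together.

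Genes of T cell receptor signalling shifted little. Here 21 of 30 genes passed the filter, 0 rose and 0 fell, with a median of 0.40 (0.16), and the kinase genes Zap70 and Lck had ratios of 0.82 and 0.70. Among activation and costimulation genes 17 of 24 genes passed the filter, 1 rose and 0 fell, the riser being Tnfsf8, with a median of 0.55 (0.36). Tnfrsf4, which encodes the costimulatory receptor OX40 (GRCm38 chr4:156013843-156016612), was at 282 CPM in control members (87 UMIs in 24 cells, 95% interval 226 to 348) and 447 in ACD members (2278 UMIs in 500 cells, 95% interval 429 to 466). The ACD level lay above the control interval, and the ratio of 0.65 was under 2-fold. Icos, another costimulatory receptor, was at 347 CPM in control members (107 UMIs in 31 cells) and 584 in ACD members (2976 UMIs in 596 cells), a ratio of 0.73. Tnfrsf18 and Il2ra, further receptors of activated T cells, had ratios of 0.91 and 0.80, Cd28 of 0.025, Cd40lg of 0.19 and Cd69, an early activation and retention marker, of -0.21. Of the checkpoint genes, 1 of 11 passed the filter. This was Ctla4, the inhibitory receptor for CD80 and CD86, at 101 CPM in control members (31 UMIs in 7 cells, 95% interval 68.3 to 143) and 216 in ACD members (1100 UMIs in 279 cells, 95% interval 203 to 229), with a ratio of 1.03 (0.47). The Ctla4 ratio ran from 0.47 to 2.46 over 13 settings of the processing. Havcr2 and Lag3, receptors of chronically stimulated T cells, had 0 UMIs in control and 145 and 90 in ACD. Against a floor of 3 UMIs for control this gave at least 2.92-fold and at least 1.82-fold higher levels in ACD.

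The lists of regulatory T cells, migration and residence held between 1 and 3 changed genes each. Of the regulatory T list 7 of 19 genes passed the filter, 1 rose and 0 fell, the riser being Ctla4, with a median of 0.65 (0.37). Among chemokine receptors 3 of 20 genes passed the filter, 1 rose and 0 fell: Ccr7, which guides T cells to lymph nodes, had 13 UMIs in 9 control cells and 542 in 243 ACD cells, a ratio of 1.16 (0.61). Cxcr6, a receptor of T cells lodged in tissue, was at 162 CPM in control members (50 UMIs in 19 cells, 95% interval 120.4 to 214) and 309.8 in ACD members (1578 UMIs in 408 cells, 95% interval 295 to 325), a ratio of 0.89. In the residence list 11 of 17 genes passed the filter, 2 rose and 1 fell, with a median of 0.20 that was -0.081 without the stroma-carrying cells. Itgae, the integrin chain that binds E-cadherin, had 8 UMIs in control and 409 UMIs in 184 ACD cells, a ratio of 1.33 (0.85), while Ramp3, a partner of the calcitonin receptor family, was at 29.2 CPM in control members (9 UMIs in 4 cells) and 108 in ACD members (551 UMIs in 225 cells), a ratio of 1.59 (1.13). Ramp1, the partner chain of the CGRP receptor, went the other way, at 152 CPM in control members (47 UMIs in 14 cells, 95% interval 112 to 203) and 43.4 in ACD members (221 UMIs in 94 cells, 95% interval 37.9 to 49.5), a ratio of -1.61 (-1.96). The naive and recirculation list had 1 rise, Ccr7, among 10 past the filter, and its median of 0.24 became -0.085 without the stroma-carrying cells. The adhesion list had a median of -0.028 whose sign changed in 6 settings.

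Immediate-early genes, which respond within minutes to receptor signals and also to tissue digestion, had a median below 0. Among them 26 of 28 genes passed the filter, 0 rose and 5 fell, with a median of -0.56 (-0.53). Klf4, a factor of T cell quiescence, was at 373 CPM in control members (115 UMIs in 19 cells, 95% interval 308 to 448) and 118 in ACD members (602 UMIs in 170 cells, 95% interval 109 to 128), a ratio of -1.58 (-1.27). Zfp36, which destabilises cytokine mRNA, went from 1116 to 468 CPM, a ratio of -1.24 (-1.33), and Fosb, of the AP-1 family, from 457 to 214, a ratio of -1.06 (-1.11). Jun and Ier3 met the 2-fold rule over all members at -1.22 and -1.01 and were at -0.58 and -0.0092 without the stroma-carrying cells. Fos and Junb had ratios of -0.55 and -0.51. Of the heat shock genes 15 of 17 genes passed the filter, 0 rose and 2 fell, with a median of 0.19 (0.18). The 2 were the chaperones Hspa1b, from 1171 to 417 CPM, a ratio of -1.47 (-1.87), and Hspb1, a ratio of -1.12 (-0.72). Each condition was 1 library, so preparation and condition cannot be told apart. Id3, an inhibitor of E proteins, fell among the transcription factors, at 526 CPM in control members (162 UMIs in 24 cells, 95% interval 448 to 613) and 189 in ACD members (961 UMIs in 242 cells, 95% interval 177 to 200.98), a ratio of -1.43 (-1.23).

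Genes of the cell cycle had a median below 0 as well. Over all members 23 of 38 genes passed the filter, 0 rose and 2 fell, with a median of -0.44. Without the stroma-carrying cells 14 of 28 fell and the median was -0.96. The fallen genes were Ccna2, at 77.9 CPM in control members (24 UMIs in 8 cells) and 29.1 in ACD members (148 UMIs in 59 cells), and Ccnb2, at 87.6 CPM in control members (27 UMIs in 11 cells) and 38.1 in ACD members (194 UMIs in 67 cells), which encode cyclins that drive entry into division. Their ratios were -1.17 (-1.63) and -1.02 (-1.34). Mki67, the proliferation marker, was at 188 CPM in control members (58 UMIs in 13 cells, 95% interval 143 to 243) and 108 in ACD members (548 UMIs in 146 cells, 95% interval 98.8 to 117), a ratio of -0.75 (-1.19). Its control UMIs came from 13 of 44 cells, so few control cells carry this difference. Top2a, Birc5 and Stmn1, of chromosome and spindle function, had ratios of -0.97, -0.91 and -0.81 (-1.30, -1.51 and -1.25).

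The other lists held 2 or fewer changed genes. For type 2 genes 3 of 17 genes passed the filter, 0 rose and 0 fell, with a median of 0.44 that was -0.0046 without the stroma-carrying cells, and Gata3, the master factor of type 2 cells, had a ratio of -0.17. For type 17 genes 3 of 14 genes passed the filter, 0 rose and 1 fell, with a median of -0.10 that turned to 0.35 without those cells. The fallen gene was Tmem176b, a membrane protein of RORγt-expressing lymphocytes, at 120.1 CPM in control members (37 UMIs in 12 cells, 95% interval 84.5 to 165) and 38.5 in ACD members (196 UMIs in 76 cells, 95% interval 33.3 to 44.3), a ratio of -1.42 (-1.46). Of the follicular helper list, 0 of 10 genes passed the filter. Among cytokine receptors 13 of 35 genes passed the filter, 0 rose and 0 fell, with Il7r, the receptor for a survival cytokine, at 0.91. The NF-kB feedback list had 1 rise among 13, the survival gene Bcl2a1d at 1.11 (0.82). For glycolysis 12 of 20 genes passed the filter, 0 rose and 0 fell with a median of 0.24, for the respiratory chain 37 of 38 genes passed the filter, 0 rose and 0 fell with a median of 0.038 (-0.13), for apoptosis and survival 13 of 25 genes passed the filter, 0 rose and 0 fell with a median of 0.42, and for transcription factors of T cells 22 of 42 genes passed the filter, 0 rose and 1 fell with a median of 0.29 (-0.011). Ctla2a, a protease inhibitor of lymphocytes outside the lists, was at 311 CPM in control members (96 UMIs in 19 cells, 95% interval 252 to 380.4) and 1151 in ACD members (5864 UMIs in 445 cells, 95% interval 1122 to 1181), a ratio of 1.85 (1.90).

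**Figure D3:**
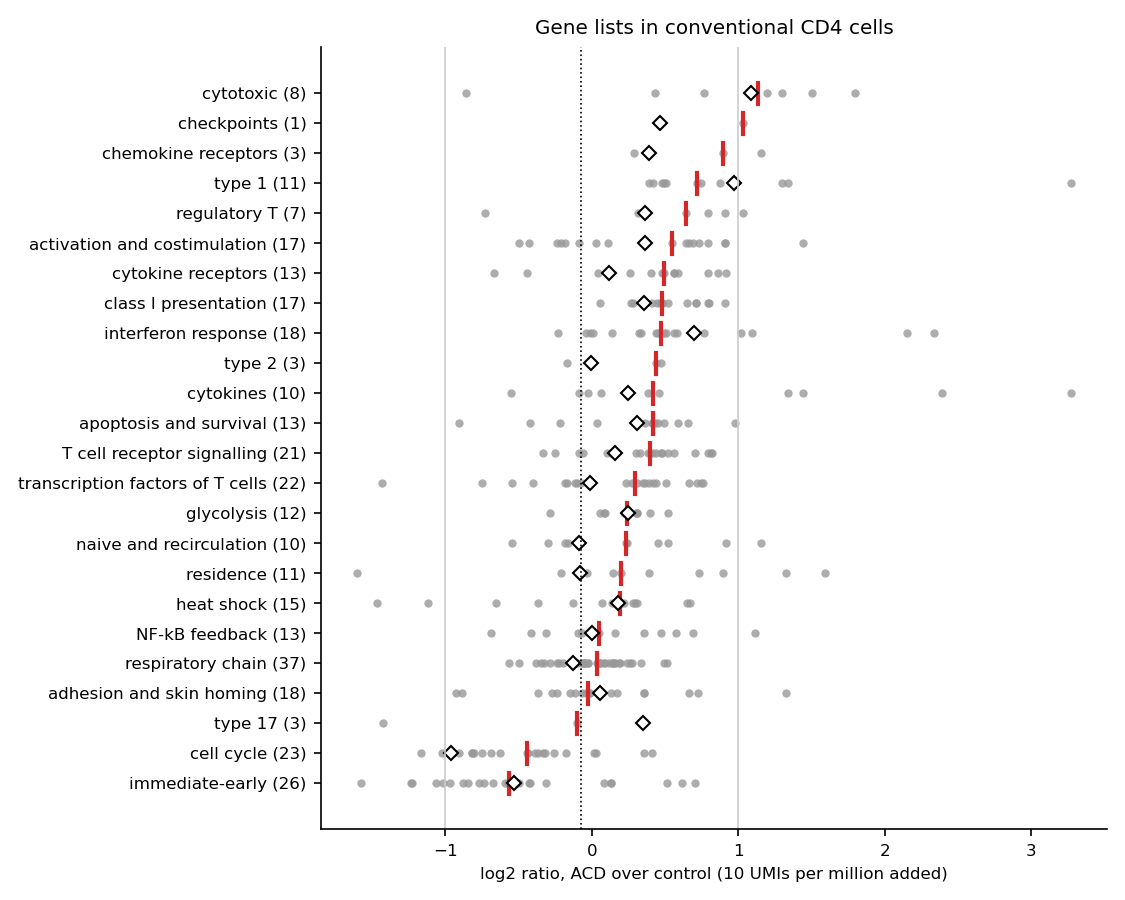
Log2 ratios, ACD over control in the members, for each list of genes (number past the filter in brackets): grey dots are genes, red bars list medians, white diamonds the medians without the stroma-carrying cells, the dotted line the median of all genes tested and the grey lines 2-fold. The cytotoxic median of 1.13 lies near the top and the immediate-early median of -0.56 at the bottom.

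Within ACD the members differed in the cytokine they carried. With each cell thinned to 2000 UMIs, 656 of the 661 cells were deep enough. Of these, 443 (67.5%) showed none of Ifng, Il17a, Il17f and Il13, 176 (26.8%) showed Ifng alone, 14 an Il17 gene alone and 14 Il13 alone. Ifng and an Il17 gene met in 1 cell, Ifng and Il13 in 8, and an Il17 gene and Il13 in 0. Single cytokine UMIs are often missed at this depth, so an empty cell is not shown to lack the cytokine. Csf2 was found in 11% (72 of 656 cells, 95% interval 8.69 to 13.6%), against 0.0583% of the fibroblast cells. Of its 72 cells, 27 (37.5%) also held Ifng, and of 54 cells with Tnf, the inflammatory cytokine, 27 (50%) did, beside 28.2% of all members. Ccl1, a ligand of CCR8, shared 17 of its 33 cells (51.5%) with Ifng and 14 (42.4%) with Csf2. Il13 was found in 3.35% (22 of 656 cells, 95% interval 2.11 to 5.03%) and met Csf2 in 10 of 22 cells (45.5%). Il17a was found in 1.98% (13 of 656 cells, 95% interval 1.06 to 3.36%), and 4 of its 13 cells (30.8%) held Il22. Il2, Il10 and Il21 reached 1.83%, 1.22% and 0.610%. Il4 was found in 0 of 656 cells, and a limit set at 3 cells gives a share of up to 0.457%. Cytokine RNA was also uneven: the 67 members richest in Ifng held 59.2% of its 1375 UMIs, and 1 cell held 66.

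**Figure D4:**
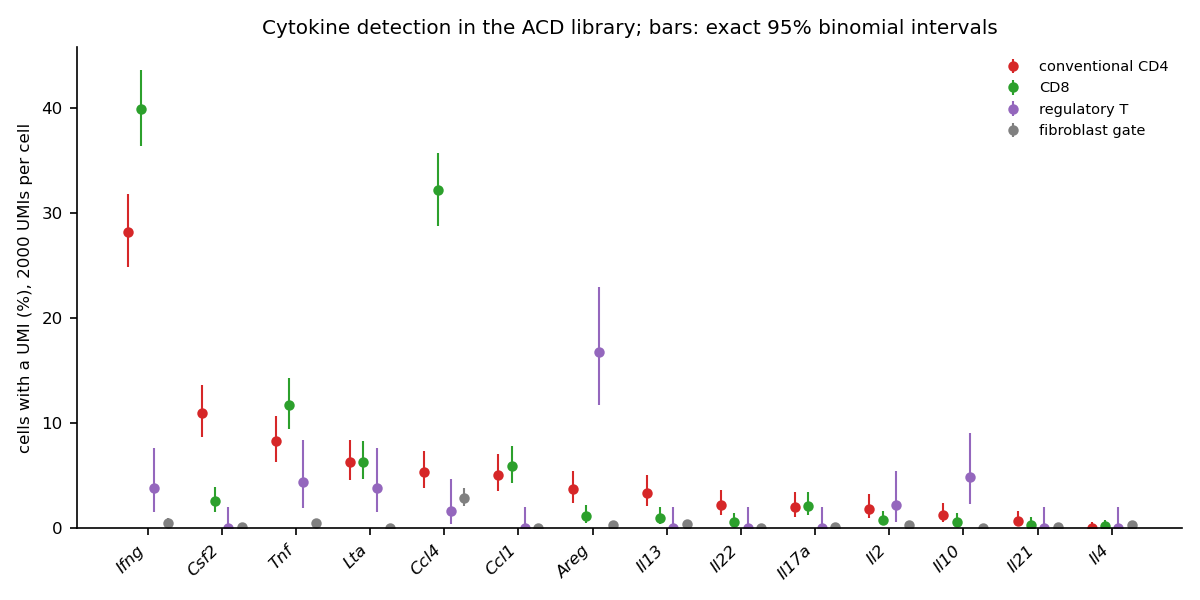
Percent of ACD cells with at least 1 UMI of each cytokine after thinning to 2000 UMIs per cell, with exact 95% binomial intervals (counting error only), in conventional CD4, CD8 and regulatory T cells and in fibroblast cells. Ifng reached 28.2% of conventional CD4 and 39.9% of CD8+ cells, and Csf2 11% and 2.50%. The fibroblast cells are shown for comparison, and free RNA itself was not measured.

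The members were next set beside the CD8+ T cells of the ACD library, the 725 cells chosen by the same rule with a Cd8a or Cd8b1 UMI and no Cd4 UMI (median 7272 UMIs). The gates were chosen by UMIs of these same cells and the genes they use are left out, so this is a description within 1 library. Of 2587 genes, 15 were at least 2-fold higher in the members (0.58%) and 23 at least 2-fold lower (0.889%), with a median log2 ratio of 0.044. The highest ratio was that of Coch, 2.67, which was -0.093 without the stroma-carrying cells. The higher genes also included several of costimulation and T cell help. Tnfrsf4, which is also on the regulatory T list, was at 447 CPM in the members (429 to 466) and 66.9 in CD8+ cells (60.8 to 73.5), a log2 ratio of 2.57 (2.66). Csf2 was at 144 and 23.5 CPM, a ratio of 2.20 (2.26), and Tnfsf8 at 149.6 and 25.3, a ratio of 2.17 (2.34). Ramp3 (2.03) and Maf (1.54), a factor that drives IL-4 and IL-10, also stood higher, as did Ifitm2 (1.24) and Ifitm3 (1.33). Cd40lg, low in level, was at 49.5 CPM (43.6 to 56.0) against 6.49 (4.68 to 8.78). Of the activation and costimulation list 17 of 24 genes passed the filter, 3 were higher and 0 lower.

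The genes lower in the members than in CD8+ cells included many cytotoxic ones. Cxcl9 at -2.57 (0.017), Acta2 at -2.50 (-2.11) and Angptl7 at -2.03 (0.037) were also among the lowest. Ccl5, a chemokine of effector T cells, was at 72.8 CPM in the members and 2472 in CD8+ cells, a log2 ratio of -4.91 (-5.26). Gzma was at 82.8 and 1049, a ratio of -3.51 (-3.51), and Nkg7 at 567 and 1428, a ratio of -1.32 (-1.32). Xcl1 (-2.93), a chemokine that draws cross-presenting dendritic cells, Lag3 (-2.05) and Klrk1 (-1.57), the NKG2D receptor, were lower as well. Of the cytotoxic list 12 of 24 genes passed the filter, 0 were higher and 7 lower, with a median of -1.29 (-1.27). Ifng was at 269.9 CPM in the members (256 to 285) and 477 in CD8+ cells (460.2 to 494), a ratio of -0.80 that was under 2-fold with intervals apart, and its thinned share was 28.2% against 39.9% (287 of 719 cells, 95% interval 36.3 to 43.6%). Nkg7, Gzma, Klrd1 and Ctsw, which had risen with ACD in the members, thus lay below their CD8+ levels, of which the last pair were 341 and 495 CPM. Over class I genes the median was 0.11 and over the respiratory chain -0.17.

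**Figure D5:**
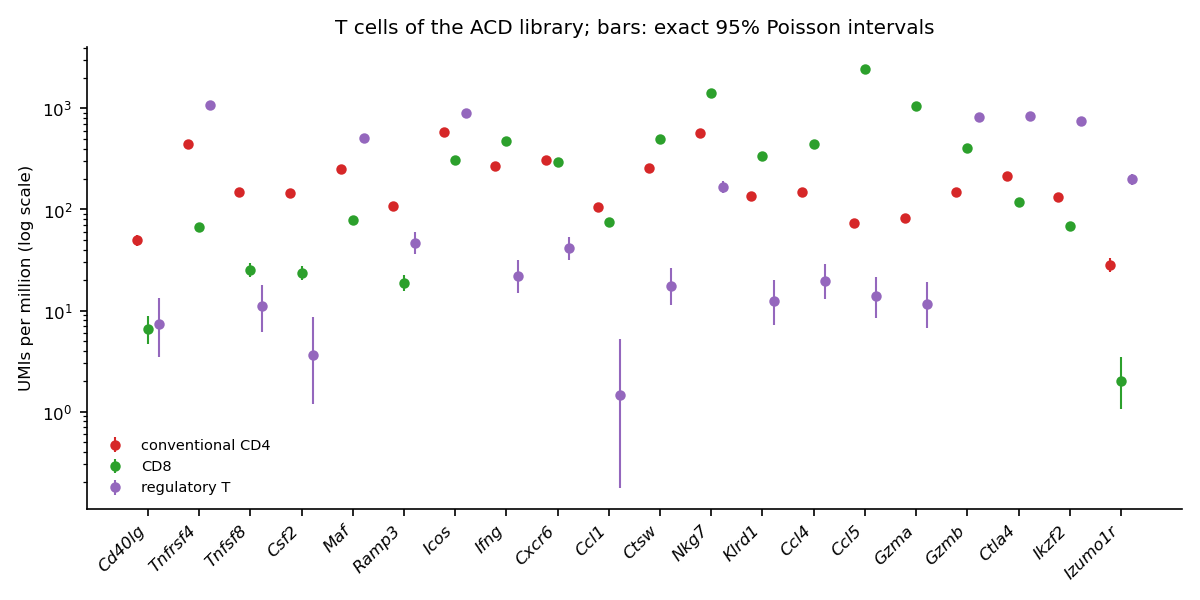
Levels of 20 genes in CPM (UMIs per 1000000) on a log axis with 95% Poisson intervals (counting error only) in conventional CD4 (red), CD8 (green) and regulatory T cells (purple) of the ACD library. Csf2, Tnfsf8 and Cd40lg lie highest in the conventional CD4 cells, Ccl5 and Gzma in the CD8 cells, and Ctla4, Ikzf2 and Gzmb in the regulatory T cells.

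Beside the 188 regulatory T cells of the ACD library, which the rule parts from the members by a Foxp3 UMI, 38 of 2772 genes were at least 2-fold higher in the members (1.37%) and 64 at least 2-fold lower (2.31%), with a median of -0.11. Genes that travel with Foxp3 differ by that choice. The highest ratios were those of Hbb-bs at 4.57 (4.71), Hbb-bt at 4.47 (4.67) and Hba-a1 at 4.31 (4.47), with most member UMIs in 2 cells. Coch had 3.43 (-0.21). The lowest were Krt15 at -3.18 (-3.36), Chil1 at -3.15 (0.013) and Spp1 at -2.76 (-0.057). Effector cytokines also stood higher in the members. Ifng was at 269.9 CPM against 21.9 (14.8 to 31.3), a log2 ratio of 3.13 (3.20), Csf2 at 144 against 3.66, a ratio of 3.50 (3.58), and Ccl1 had a ratio of 3.34 (2.54). Of the 541 Ccl1 UMIs of the members, 51.9% lay in 2 cells. Of the cytokine list 9 of 38 genes passed the filter, 5 were higher and 1 lower, with a median of 2.42 that was 1.34 without the stroma-carrying cells, where 4 of 8 were higher. Ctsw (3.28), Tnfsf8 (2.93), Klrd1 (2.71) and Cxcr6 (2.63) were higher too. Ikzf2, which encodes the regulatory T cell factor Helios (GRCm38 chr1:69531214-69687245), was at 132 in the members and 755 in regulatory T cells, a ratio of -2.43 (-2.38). Ctla4 was at 216 and 846 (-1.92), Gzmb at 148 and 818 (-2.39), and Tnfrsf9, which encodes 4-1BB, had a ratio of -1.83. Of the regulatory T list, which includes Tnfrsf4, 8 of 19 genes passed the filter and 0 of them had a ratio above 0. The interferon list had 3 higher and 7 lower of 22, with a median of -0.55, and 0 of 18 class I genes had a ratio above 0 (median -0.45).

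A cell in which Foxp3 RNA was missed counts as a member, so the members were searched for Ikzf2 and Izumo1r, 2 genes of regulatory T cells that the rule did not use. Either was found in 213 of 661 ACD members (32.2%), 7 of 44 control members (15.9%), 180 of 188 regulatory T cells (95.7%) and 222 of 725 CD8+ cells (30.6%), and the shares in ACD members and in CD8+ cells lay close. ACD members with either gene carried Ctla4 at 487 CPM (453 to 522) and those with neither at 88.2 (78.5 to 98.6). In control members Ctla4 was at 534 CPM with either (29 UMIs) and 7.88 with neither (2 UMIs). Within ACD Gzmb differed more, at 404 (374 to 436) against 26.6 (21.4 to 32.6), so 660 of its 752 UMIs lay in the cells with Ikzf2 or Izumo1r. Il10, the anti-inflammatory cytokine, had 48 UMIs with either and 4 with neither. Tnfrsf4 was at 644 CPM with either (606 to 685) and 354 with neither (335 to 374). Ifng ran the other way, at 149 CPM with either and 327 with neither, as did Csf2 at 68.5 and 180.1 and Nkg7 at 398 and 646. Without these cells the ACD over control ratio of Gzmb was -1.28, while the ratio of Ifng was 1.54. The Gzmb value rests on 20 control UMIs in 4 cells. With the stroma-carrying cells left out instead, 2 control UMIs remained and the ratio was 3.05. Whether Gzmb rose among the rest therefore cannot be told. The median cell held 6156 UMIs with either gene and 6305 with neither.

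Last, the ACD members were split by an Ifng UMI after thinning to 2000 UMIs, into 185 cells with and 471 without (median depth 6307 and 6342 UMIs). The split uses Ifng itself, so what follows is a description of the cells that carried it, on the thinned counts. Of 2602 other genes, 12 were at least 2-fold higher in the cells with Ifng (0.461%) and 34 at least 2-fold lower (1.31%), with a median of -0.0084. Tnf was at 89.2 CPM in the cells with Ifng (33 UMIs) and 32.9 in those without (31 UMIs), and Gzmb at 43.2 CPM in the cells with Ifng (16 UMIs) and 232 in those without (219 UMIs). Stroma-carrying cells made up 5.95% and 10.6% of the 2 sets, and several lower genes were stromal, such as Chad at -2.68 (-0.45) and Mgp at -1.87 (-0.093). Among immune genes the higher ones were Ccl1 at 1.53 (0.75), Tnf at 1.21 (1.24), Ifitm1 at 1.14 (1.12), the natural killer receptor Klrc2 at 1.15 (1.06) and the checkpoint receptor Pdcd1 at 1.07 (1.20), each as a log2 ratio. The regulator of G protein signals Rgs16 at 1.13 (1.13) and the Notch effector Rbpj at 1.07 (0.90) were also among them. Lower were Ccl3 at -2.34 (-2.41), Ccl4 at -2.33 (-2.57) and Gzmb at -2.19 (-2.23), of which the first pair had most of their UMIs in 2 cells. Ccl4, higher in ACD over all members as Ifng was, thus had a lower summed level in the cells with an Ifng UMI. So did Gzmb, whose ratio of ACD over control ran from -1.28 to 3.13 over 13 settings of the processing. Of its 752 ACD UMIs, 660 lay in members with Ikzf2 or Izumo1r. Counted by cells Ccl4 was not lower with Ifng: 12 of the 35 cells with Ccl4 (34.3%) also held Ifng, beside 28.2% of all members. Of cytotoxic genes 12 of 24 genes passed the filter, 2 were higher and 1 lower, with a median of 0.56, and of cell cycle genes 16 of 38 genes passed the filter, 1 was higher and 0 lower, with a median of 0.50 (0.49). The naive and recirculation list had a median of -0.38, with 1 of 10 genes above 0. The regulatory T list had a median of -0.38.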

How the data were processed

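The deposited files held UMI counts per gene and barcode, 1 matrix for each library, which the authors made with the 10x 3' kit v2 and Cell Ranger (3.1.0 in the submitters' processing notes and the file headers) on mm10. The files held 12895 control and 13163 ACD barcodes with 99037698 and 126566870 UMIs. After the study's methods, barcodes with 201 to 4999 genes were kept if they held no more than 25000 UMIs, less than 8% of them mitochondrial; reading the UMI limit as an upper one is a choice made here, and the 12213 and 11665 cells kept are more than the study gives. UMIs were summed over the members of a library, and raw ratios have exact conditional intervals, levels exact Poisson and shares exact Clopper-Pearson intervals. The 25 gene lists, of which 8 genes had no entry in the annotation of 27998 genes, and the members were chosen with earlier results of these data known. Named genes were the 10 at each end of a comparison, leaving out predicted genes and those of the gates, and members of the lists. Other genes named for cell content were chosen after their values were seen. Doublets were kept. Alternatives were other cell filters, gates, scalings, depths, gene filters and removal of Scrublet calls. Counting was tested on simulated data. Tools were Python 3.11.15, numpy 2.4.6, scipy 1.17.1, pandas 2.3.3, scanpy 1.11.5 and matplotlib 3.10.9. Gene positions were read from GENCODE on GRCm38, in which 27645 of the gene IDs were found.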

Additional observations from a re-analysis of the deposited data

How the results depend on the processing

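The share of members kept its direction in every setting, with a log2 ratio of 3.66 to 4.29 over all cells and 1.65 to 2.27 over CD3 cells. Counts of genes moved by over 1.5 times as follows. Of the 131 genes lower in ACD there were 82 with all deposited barcodes, 207 with a stricter gate (at least 3 CD3 and 2 Cd4 UMIs), 293 with a filter of 20 UMIs and level 20, and 472 with no filter. Of the 32 higher there were 74 with totals without ribosomal, mitochondrial and hemoglobin genes, 94 with thinned cells, 91 with the filter of 20 and 208 with none. The genes tested, 2758 in the main setting, were 2780 with all barcodes, 2798 with the stricter gate, 3722 with those totals and 2715 with thinned cells. They were 5486 with the filter of 20 and 15341 with none, so these counts are not shares of the same genes. Against CD8+ cells the 15 higher became 28 and 40 under these 2 filters, and the 23 lower 37 and 53, and 35 with the stricter gate. Genes tested there were 2587 in the main setting and 5203 and 16426 under the 2 filters. Against regulatory T cells the 38 higher became 76 with the other totals, 83 with the filter of 20 and 144 with none, and the 64 lower 112 with none and 99 without cells with Ikzf2 or Izumo1r. Here 2772 genes were tested in the main setting, 3667 with the other totals, 5368 with the filter of 20 and 15641 with none. The percent of ACD members with an Ifng UMI, 28.2, was 32.9 with the stricter gate, 17.4 at 1000 UMIs per cell and 44 without thinning. The Ifng split gave 11 higher and 23 lower genes without the stroma-carrying cells, and 14 and 33 without the hemoglobin-rich cells.

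Of the log2 ratios past 2-fold over all members, these changed sign: with the stricter gate Dlk1 (0.48) and Gzmb (-0.24), without cells with Ikzf2 or Izumo1r Gzmb (-1.28) and, over CD8+ cells, Hbb-bt (-1.11), and with Scrublet calls removed Ier3 (0.054) and, over regulatory T cells, Spp1 (0.18). Without the stroma-carrying cells they were Gas1 (0.67), over CD8+ cells Coch (-0.093), Cxcl9 (0.017) and Angptl7 (0.037), and over regulatory T cells Coch (-0.21) and Chil1 (0.013). Without the hemoglobin-rich cells they were Hbb-bt over CD8+ cells (-0.037) and Hba-a1 over regulatory T cells (-0.22). The median of the checkpoint list was -0.21 with thinned cells. Ratios and medians under 2-fold changed sign as well, among them Il17a (-0.91, up to 0.43), Cd40lg (0.19, down to -0.10), Ccl1 (0.46, down to -0.28), Gata3 (-0.17, up to 0.32), Ikzf2 (0.36, down to -0.16) and the median of the type 17 list (-0.10, up to 0.35). The causes were not tested. The stroma-carrying and hemoglobin-rich settings were chosen after the data were seen. No paired analysis was possible because each condition has 1 library. The control levels rest on 44 cells with 308198 UMIs, which limits their precision.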
